A study of Mus musculus with 25 samples.

Results

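The 36 genes described here make or regulate sterols and fatty acids. They were chosen by name for these known roles, with earlier results of these data known. They fall into 5 roles: 8 genes of the mevalonate pathway and its branches, 11 genes of the sterol part of cholesterol synthesis, 6 regulators of the sterol regulatory element binding proteins (SREBP), 6 genes of fatty acid synthesis and desaturation, and 5 genes of the liver X receptors (LXR) and their targets. All 36 were listed among the 18440 genes common to the tables and passed the filter on low values, which 13117 genes passed. The libraries were made from whole retina of C57BL/6J wild-type mice at postnatal day 30, from which cornea and lens had been removed. Each of 3 compounds was injected into the vitreous of both eyes as 1 µL at 10 µM. AA147 is an activator of ATF6, the membrane protein of the endoplasmic reticulum (ER) that is cleaved in ER stress to release a transcription factor. Ceapin-A7 keeps ATF6 from leaving the ER. Tunicamycin blocks N-glycosylation of proteins and causes ER stress. Both vehicle sets are labelled PBS, and the protocol gives their injection as saline with 0.05 to 0.1% dimethyl sulfoxide. There were 5 libraries in each of the 5 groups. The columns of the compounds carry 24 h and those of the vehicles no time, so a difference in collection time cannot be told apart from a compound's effect. Whether the 5 libraries in a group represent 5 mice is not stated, so p-values cover only library-to-library spread, part of which may be technical.

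Cholesterol is built from acetyl groups through mevalonate, the isoprenoid farnesyl diphosphate, squalene and lanosterol. SREBP precursors sit in the ER membrane bound to SCAP. When ER sterol is low, SCAP carries them to the Golgi, where the proteases that also cleave ATF6 release their transcription factor domain. INSIG proteins hold the complex in the ER when sterol is plentiful. SREBP-2 mainly drives cholesterol genes and SREBP-1c fatty acid genes. LXR respond to oxysterols and turn on sterol export genes. In the retina, cholesterol is made locally as well as taken up, and photoreceptors renew their membrane discs throughout life.

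Levels are in FPKM, fragments per kilobase of transcript normalised to library size, a scale on which genes can be compared per length. Differences are on the log2(FPKM + 1) scale, which understates changes of low genes, and come with the standard error (SE) of limma, a linear model fitted across all 13117 genes. Genes were called at an adjusted p (Benjamini-Hochberg, over all genes tested) under 0.05. The deposited tables come in 2 gene lists, one used for vehicle set 1 and AA147 and the other for tunicamycin, Ceapin-A7 and vehicle set 2, so each compound was compared with the vehicle set of its own gene list. A rough depth estimate, read from how the lowest FPKM values are spaced, was 15.2 to 24.8 M fragments per library. Gnat1, the rod transducin alpha subunit, lay between 3788 and 7174 FPKM and Sag, the arrestin of photoreceptors, between 1285 and 2923 FPKM, so all 25 libraries carried these photoreceptor transcripts. Some libraries stood apart. Summed lens markers ranged from 2.01 to 10734 FPKM within the tunicamycin group and from 4.67 to 3929 FPKM in vehicle set 2. The Y-linked gene Ddx3y was at 0 in 4 of the 5 libraries of vehicle set 2 and above 0 in all 5 tunicamycin libraries. Y-linked genes are carried by males, so sex appeared unevenly split, and its part can hardly be told apart from tunicamycin's in this comparison. Summed over Ddx3y, Uty, Eif2s3y and Kdm5d, Y-linked markers were at most 0.31 FPKM in libraries 4 and 5 of AA147 and of Ceapin-A7. They were 70.2 FPKM or more in the other libraries of these groups and 56.6 FPKM or more in vehicle set 1. The ER chaperone Hspa5, which ER stress induces, stood at 1513, 495, 229, 581 and 427 FPKM in tunicamycin libraries 1 to 5 and at 106 to 162 FPKM in vehicle set 2. Summed over Hspa5, Ddit3, Atf3, Sdf2l1 and Trib3, libraries 1 to 5 of vehicle set 2 read 165, 174, 168, 258 and 288 FPKM. Libraries 4 and 5 of that set thus stood above the rest, and they were left out together in 1 alternative.

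Of the 36 genes, 15 fell in the tunicamycin libraries against vehicle set 2, 0 rose and 21 did not pass the test. Among all genes tested, 2.81% were called lower and 5.89% higher, 8.7% in either direction. The 15 genes were Hmgcs1, Mvk, Idi1 and Fdps of the mevalonate part, Fdft1, Sqle, Msmo1 and Nsdhl of the sterol part, the regulators Srebf2, Insig1 and Stard4, and the fatty acid genes Acly, Fasn, Scd1 and Scd2. No LXR gene passed. The called changes ran from -0.54 to -0.22, or -31.2% to -14.3% of FPKM + 1. The median difference of the 36 genes was -0.18, against 0.013 for all genes tested, and 29 of the 36 lay below zero (80.6%, against 45.6% of all genes). The test pools its estimate of spread over 5 groups, and for 16 of the 36 genes the tunicamycin group had the highest SD of FPKM of the 5 groups. With only the 2 compared groups in the model, 3 of the 36 genes were called (0.656% of all genes), Fasn, Scd2 and Sqle. With the 3 groups of one gene list, 8 were called (3.0% of the genes tested there), and with Ddx3y as a covariate 7 (3.28% of all genes). Those 3 genes were called in all 22 alternatives that were run.

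**Figure D1:**
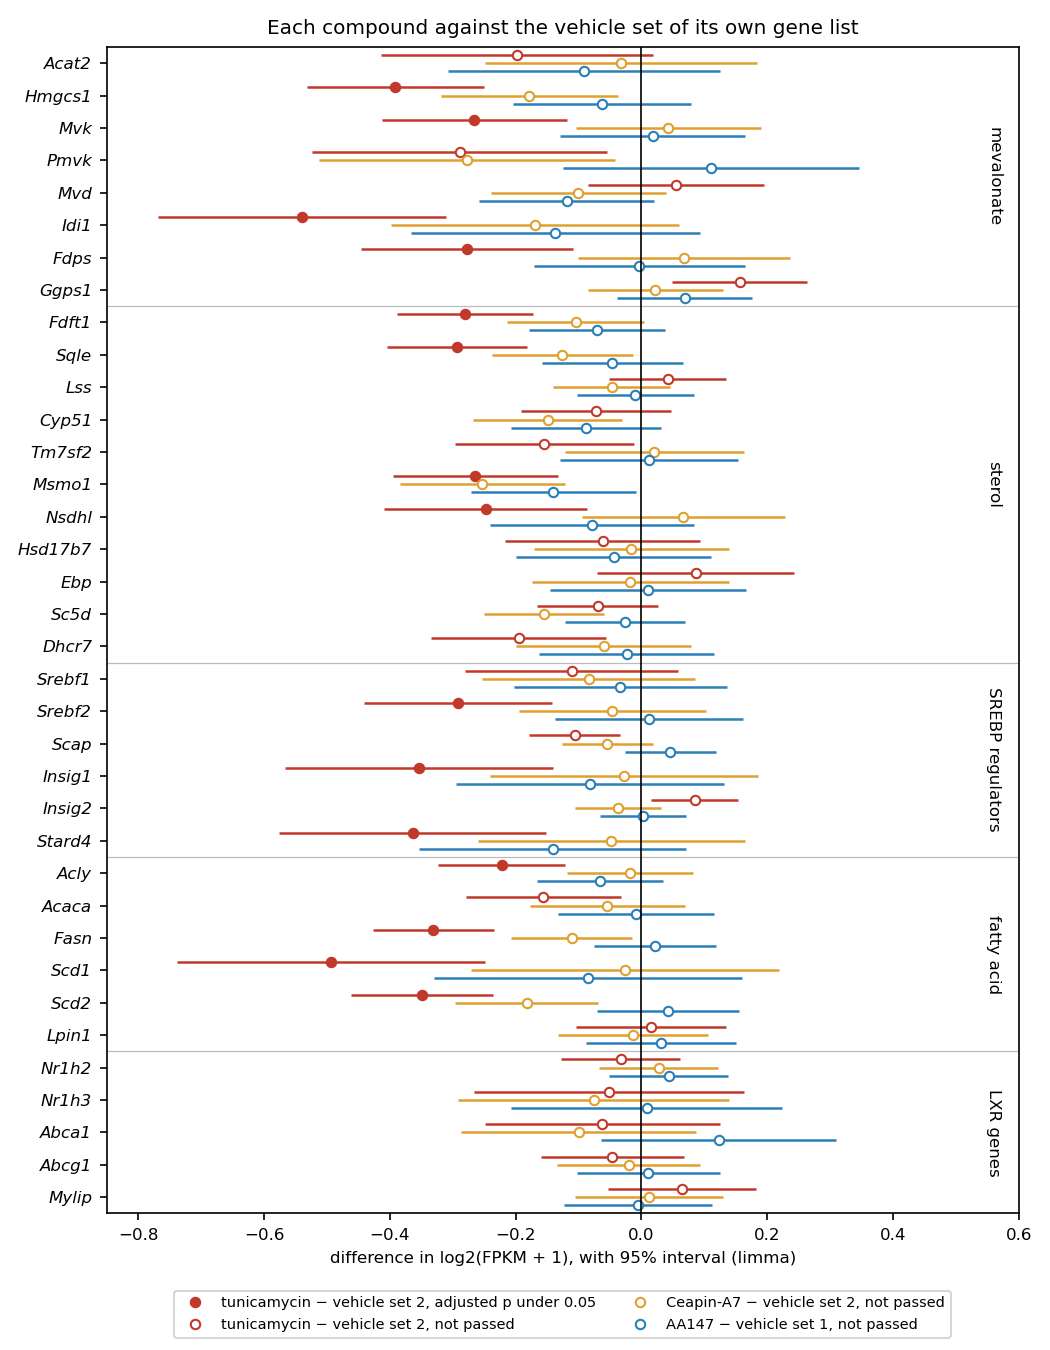
Difference in log2(FPKM + 1) of each of the 36 genes (rows, by role) between each compound and the vehicle set of its own gene list, with the 95% interval of limma. Filled points have an adjusted p under 0.05: there are 15 for tunicamycin, all left of zero, and none for Ceapin-A7 or AA147.

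The DNA upstream of the members was searched for the letters through which SREBP and its partner NF-Y are known to bind. RefSeq windows of 250 bases before the transcription start, in build GRCm38.p6, were found for 29 of the 36 genes. Windows of Fdft1, Stard4, Scd1, Fdps, Sqle, Scd2 and Abcg1 were not used here. On either strand, the sterol regulatory element TCACNCCAC was found in 1 member, Hmgcs1 (2.63% of member windows, 1.05% of all 32851 windows). Its core CACNCCAC, which lies within it, was found in Acat2, Hmgcs1 and Insig1 (7.89% of member windows, 5.29% of all windows). The NF-Y box CCAAT was found in 21 of the 29 members. Members can have several windows, and per window the share was 57.9%, against 33.8% of all windows. It was in 8 of the 9 members with a window that fell with tunicamycin and in 13 of the 20 others. The E-box CACGTG was in 6 members (15.8% of their windows, 6.02% of all windows). It was in 1 of the same 9 members and in 5 of the 20 others. The core CACNCCAC was in 2 of the 9 and 1 of the 20. Neither the ER stress response element ERSE, which contains CCAAT, nor the direct repeat bound by LXR was in any member window (0.113% and 0.0152% of all windows). A match is a description of letters, not a bound site.

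Shown here are 4 windows of genes that fell, from the mevalonate, regulator and fatty acid roles, and then 2 of cholesterol genes that did not pass, in the direction of transcription, with CACNCCAC and CCAAT on either strand in capitals. Hmgcs1 lies at chr13:119690101-119690350 on the plus strand, Insig1 at chr5:28071162-28071411 on the plus strand, Idi1 at chr13:8885356-8885605 on the plus strand, Fasn at chr11:120824548-120824797 on the minus strand, Mvd at chr8:122443423-122443672 on the minus strand and Cyp51 at chr5:4104698-4104947 on the minus strand.
Hmgcs1: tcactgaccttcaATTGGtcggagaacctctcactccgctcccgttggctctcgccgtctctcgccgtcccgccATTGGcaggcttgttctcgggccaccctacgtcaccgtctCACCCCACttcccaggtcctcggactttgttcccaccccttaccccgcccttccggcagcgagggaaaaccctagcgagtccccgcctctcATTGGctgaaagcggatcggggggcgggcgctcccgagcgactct
Insig1: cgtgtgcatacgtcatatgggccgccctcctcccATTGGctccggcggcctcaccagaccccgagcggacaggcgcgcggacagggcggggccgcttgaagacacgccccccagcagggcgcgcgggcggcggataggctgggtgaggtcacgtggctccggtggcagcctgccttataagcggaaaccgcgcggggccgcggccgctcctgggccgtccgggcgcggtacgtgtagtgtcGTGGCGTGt
Idi1: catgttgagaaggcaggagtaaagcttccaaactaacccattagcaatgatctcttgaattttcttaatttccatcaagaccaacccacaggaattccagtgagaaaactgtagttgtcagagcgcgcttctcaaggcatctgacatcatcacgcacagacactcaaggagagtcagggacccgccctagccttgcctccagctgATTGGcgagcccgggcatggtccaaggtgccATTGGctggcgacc
Fasn: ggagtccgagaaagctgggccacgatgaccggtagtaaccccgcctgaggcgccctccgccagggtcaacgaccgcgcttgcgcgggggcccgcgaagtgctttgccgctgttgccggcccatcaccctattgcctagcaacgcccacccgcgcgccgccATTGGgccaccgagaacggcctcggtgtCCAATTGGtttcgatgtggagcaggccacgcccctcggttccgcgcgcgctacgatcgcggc
Mvd: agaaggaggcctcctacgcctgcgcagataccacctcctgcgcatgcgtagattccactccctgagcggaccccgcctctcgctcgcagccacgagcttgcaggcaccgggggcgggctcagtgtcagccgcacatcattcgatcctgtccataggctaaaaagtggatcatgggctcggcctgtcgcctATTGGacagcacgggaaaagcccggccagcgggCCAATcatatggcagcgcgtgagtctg
Cyp51: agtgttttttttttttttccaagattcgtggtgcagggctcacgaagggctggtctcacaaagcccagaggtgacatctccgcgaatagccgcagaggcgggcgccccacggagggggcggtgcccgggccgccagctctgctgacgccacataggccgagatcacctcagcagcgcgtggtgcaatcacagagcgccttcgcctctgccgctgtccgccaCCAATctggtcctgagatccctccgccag
The Hmgcs1 window holds 3 CCAAT boxes and 1 sterol element core, and the Insig1 window 1 of each. Idi1 and Mvd hold 2 CCAAT boxes each, Fasn 3 of which 2 overlap, and Cyp51 1. Genes that fell and genes that did not pass thus both carried CCAAT within 250 bases of the start.

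In the mevalonate part, 4 of 8 genes fell with tunicamycin. Hmgcs1 makes HMG-CoA, the substrate from which mevalonate is formed. It stood at 56.5, 63.2, 60.96, 63.8 and 62.5 FPKM in libraries 1 to 5 of vehicle set 2 and at 38.1, 48.4, 57.4, 44.8 and 45.97 FPKM in tunicamycin libraries 1 to 5. The groups overlapped in tunicamycin library 3, which exceeded the lowest vehicle library, and the other 4 tunicamycin libraries lay below all vehicle libraries. Hmgcs1 fell by 0.39 ± 0.068 (SE, n = 5 and 5, limma adjusted p = 0.00092). Idi1, the isomerase that supplies dimethylallyl diphosphate, read 26.1, 33.5, 28.9, 27.6 and 33.2 FPKM in vehicle set 2 and 13.4, 21.5, 27.8, 20.2 and 20.3 FPKM with tunicamycin. Tunicamycin library 1 had the lowest Idi1 level of all 25 libraries, and library 3 again lay inside the vehicle range. Idi1 had the greatest fall of the 36 genes, -0.54 ± 0.11 (SE, limma adjusted p = 0.0038).

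Mvk, the kinase that phosphorylates mevalonate, stood at 15.3, 14.96, 16.9, 15.3 and 14.2 FPKM in vehicle set 2 and 9.93, 11.5, 14.6, 13.3 and 14.1 FPKM with tunicamycin. Fdps, which makes farnesyl diphosphate, stood at 41.6, 46.5, 48.9, 40.2 and 41.4 FPKM and 27.9, 34.8, 43.5, 36.2 and 38.3 FPKM in the same order. In both genes libraries 1 and 2 were the lowest and library 3 the highest of the tunicamycin group, and the ranges overlapped. Their differences were -0.27 ± 0.071 (SE, limma adjusted p = 0.021) and -0.28 ± 0.081 (SE, limma adjusted p = 0.034). Both calls were lost without tunicamycin library 1, without tunicamycin library 2 or without library 3 of vehicle set 2. That of Fdps was also lost without tunicamycin library 4 or without library 2 of vehicle set 2.

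The other 4 mevalonate genes did not pass. Acat2, which condenses acetyl-CoA, differed by -0.20 ± 0.10 (SE) and Pmvk, the next kinase after Mvk, by -0.29 ± 0.11 (SE). Pmvk carried 1 vehicle library far above the rest (43.1, 41.5, 40.4, 63.5 and 42.1 FPKM in libraries 1 to 5). Mvd, the decarboxylase between the kinases and Idi1, stood at 11.98 to 14.9 FPKM in vehicle set 2 and 12.6 to 15.8 FPKM with tunicamycin, a difference of 0.06 ± 0.067 (SE, 95% interval -0.08 to 0.19). Ggps1, which uses farnesyl diphosphate for protein prenylation instead of sterol, gave 0.16 ± 0.052 (SE, limma adjusted p = 0.061), with vehicle library 2 inside the tunicamycin range. Neighbouring steps of the same chain thus differed in their values, from -0.54 for Idi1 to 0.16 for Ggps1. The difference between those genes was not tested.

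In the sterol part, 4 of 11 genes fell. Fdft1, squalene synthase, takes the first step committed to sterol. It read 36.6, 37.6, 40.99, 36.5 and 37.9 FPKM in vehicle set 2 and 27.5, 31.9, 34.2, 31.8 and 30.01 FPKM with tunicamycin, with no overlap and a difference of -0.28 ± 0.052 (SE, limma adjusted p = 0.0018). Sqle, the epoxidase that oxidises squalene and a rate-limiting step, read 27.7, 26.9, 27.8, 27.8 and 30.4 FPKM and 22.2, 23.3, 24.4, 22.9 and 21.1 FPKM. Every tunicamycin library lay below every vehicle library, and tunicamycin library 1 was not the lowest here. Sqle fell by 0.29 ± 0.054 (SE, limma adjusted p = 0.0016).

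Msmo1, the methyl oxidase acting after Cyp51, read 38.1, 46.6, 41.7, 44.7 and 47.5 FPKM in vehicle set 2 and 33.5, 37.8, 37.9, 36.7 and 35.2 FPKM with tunicamycin. The groups did not overlap, and the difference was -0.26 ± 0.063 (SE, limma adjusted p = 0.011). It was not called with library weights or without libraries 4 and 5 of vehicle set 2. The Msmo1 call was also lost with only the compared groups and against the mean of both vehicle sets. Over the 22 alternatives its difference ran from -0.32 to -0.045. Nsdhl, the dehydrogenase of the same demethylation, read 14.1, 13.4, 13.4, 12.8 and 10.5 FPKM and 7.94, 10.8, 12.2, 11.8 and 10.8 FPKM. Library 1 of tunicamycin was far below the other 4, and library 5 of vehicle set 2 lay inside the tunicamycin range. Its difference of -0.25 ± 0.078 (SE) was at the threshold (limma adjusted p = 0.0496). The Nsdhl call was lost in 14 of 22 alternatives, including without any one of tunicamycin libraries 1, 2 and 5 or of vehicle libraries 1 to 4.

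The remaining 7 sterol genes did not pass. Dhcr7, which makes cholesterol in the last step of one branch, came closest with -0.19 ± 0.067 (SE, limma adjusted p = 0.071), and Tm7sf2, a sterol reductase, had -0.15 ± 0.069 (SE). Under median-ratio scaling and under quantile normalization Dhcr7 was called lower. Cyp51, the lanosterol demethylase, stood at 17.4 to 21.3 FPKM with tunicamycin and 17.8 to 21.6 FPKM in vehicle set 2, and its difference of -0.07 ± 0.057 (SE) had an interval of -0.19 to 0.05. Lss, which closes the lanosterol rings, gave 0.04 ± 0.045 (SE). Hsd17b7, Ebp and Sc5d, 3 later enzymes, gave -0.06, 0.09 and -0.07. The genes that fell in this part were thus Fdft1, Sqle, Msmo1 and Nsdhl, and the lanosterol steps between them did not pass.

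**Figure D2:**
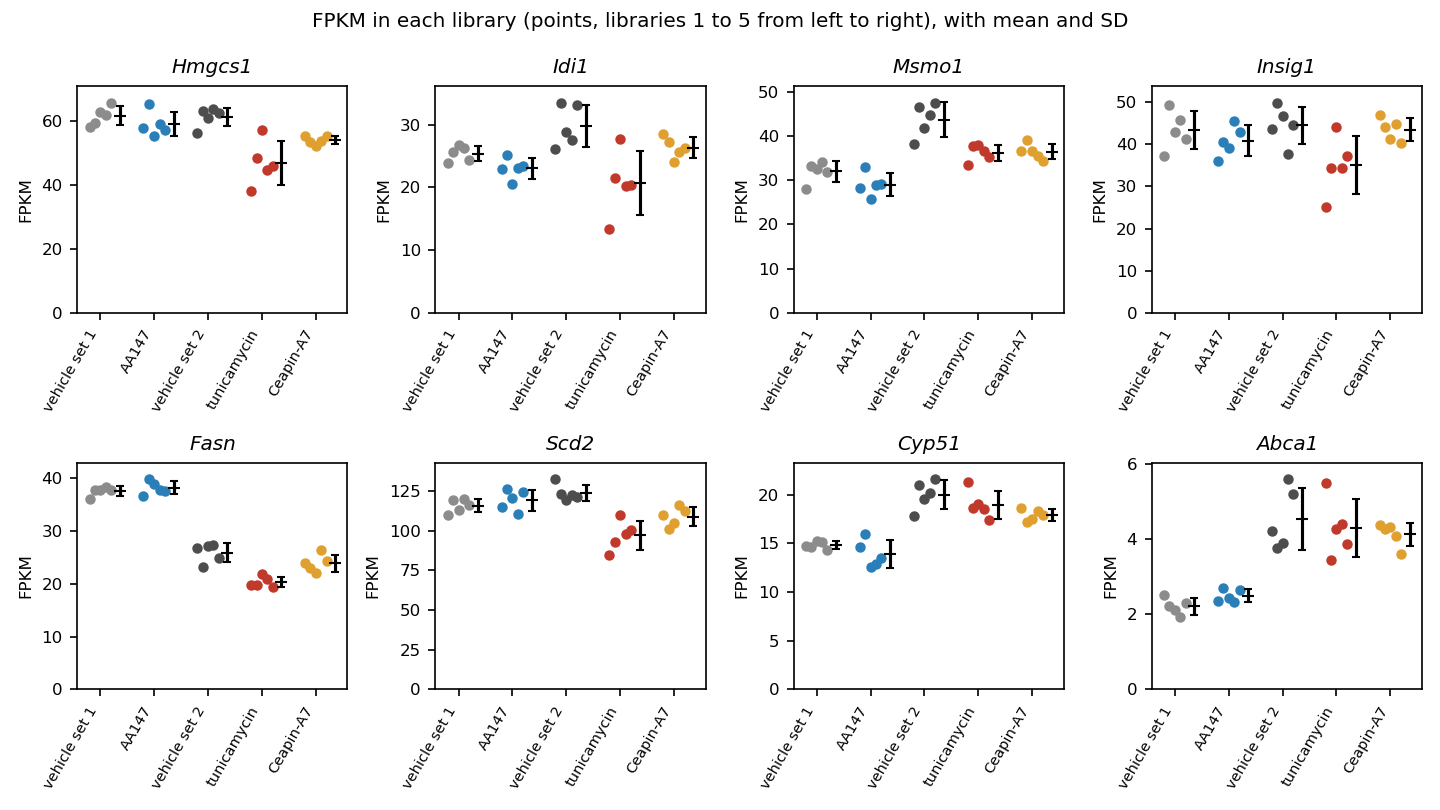
FPKM of 8 genes in each library (points, libraries 1 to 5 from left to right in a group) with the group mean and SD beside them. In Fasn and Scd2 all 5 tunicamycin points lie below all 5 of vehicle set 2, in Hmgcs1, Idi1 and Insig1 library 3 reaches the vehicle range, and Cyp51 and Abca1 differ between the vehicle sets but not, by the test, with tunicamycin.

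Of the SREBP regulators, 3 of 6 fell. Srebf2 encodes SREBP-2 and is itself a target of it. It read 47.00, 40.9, 47.8, 47.5 and 47.8 FPKM in vehicle set 2 and 28.6, 38.6, 42.7, 40.6 and 38.5 FPKM with tunicamycin, and the ranges overlapped through vehicle library 2. Srebf2 fell by 0.29 ± 0.072 (SE, limma adjusted p = 0.014), a call not kept without libraries 4 and 5 of vehicle set 2. The Srebf2 call was also lost with only the compared groups, with the groups of one gene list and with Ddx3y as a covariate. Srebf1, which encodes SREBP-1, had 22.7 to 31.98 FPKM with tunicamycin and 24.1 to 34.3 FPKM in vehicle set 2, and its difference was -0.11 ± 0.082 (SE, limma adjusted p = 0.43).

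Insig1, the INSIG whose transcript follows SREBP activity, read 43.5, 49.9, 46.7, 37.7 and 44.7 FPKM in vehicle set 2 and 25.1, 34.4, 44.1, 34.4 and 37.1 FPKM with tunicamycin, with overlapping ranges. Insig2, the form known to depend less on SREBP, read 22.2, 21.4, 21.1, 22.5 and 21.4 FPKM and 22.5, 22.7, 23.1, 23.6 and 23.6 FPKM. Insig1 fell by 0.35 ± 0.10 (SE, limma adjusted p = 0.034) while the Insig2 difference of 0.08 ± 0.033 (SE, limma adjusted p = 0.11) did not pass. The Insig1 call was lost when any one of tunicamycin libraries 1, 2 and 4 or vehicle libraries 1, 2, 3 and 5 was left out. Insig1 and Insig2 were thus on opposite sides of zero in the same libraries, a contrast between the genes that was not tested.

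Stard4, a carrier that moves cholesterol between membranes, read 7.63, 8.28, 8.52, 6.81 and 7.20 FPKM in vehicle set 2 and 3.47, 6.01, 7.60, 6.00 and 6.35 FPKM with tunicamycin, and library 3 of that group reached the vehicle range. Its difference was -0.36 ± 0.10 (SE, limma adjusted p = 0.029), and the call was lost without any one of vehicle libraries 1, 2 and 3. Scap, the SREBP escort, read 39.3, 38.4, 41.7, 40.4 and 40.5 FPKM and 35.9, 37.2, 37.7, 37.6 and 37.4 FPKM. The Scap groups did not overlap, but the gap was narrow and the difference of -0.11 ± 0.035 (SE, limma adjusted p = 0.061) did not pass. Scap passed when no filter on low values was used and under either rescaling. In all, 6 of the 36 genes had every tunicamycin library below every library of vehicle set 2, Fdft1, Sqle, Msmo1, Scap, Fasn and Scd2, against 1.24% of all genes, and 0 had the reverse, against 2.81%.

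In the fatty acid part, 4 of 6 genes fell. Acly makes cytosolic acetyl-CoA from citrate, for sterols and fatty acids alike. It read 72.9, 73.2, 77.8, 72.4 and 68.5 FPKM in vehicle set 2 and 55.7, 64.6, 68.7, 60.9 and 62.5 FPKM with tunicamycin, and only tunicamycin library 3 reached into the vehicle range. Acly fell by 0.22 ± 0.049 (SE, limma adjusted p = 0.0059). Fasn, fatty acid synthase, read 26.8, 23.2, 27.1, 27.5 and 24.9 FPKM and 19.9, 19.9, 21.8, 20.96 and 19.4 FPKM. The Fasn groups did not overlap, its 5 tunicamycin libraries lay close together, and its fall of 0.33 ± 0.047 had the lowest p of the 36 genes (SE, limma adjusted p = 7.8e-05).

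Scd2, the stearoyl-CoA desaturase of neural tissue, had the highest level per length of the 36 genes in every group. It read 133, 123, 119, 123 and 121 FPKM in vehicle set 2 and 84.9, 92.8, 109.8, 98.2 and 101 FPKM with tunicamycin, again with no overlap. Scd1, its paralog, was far lower at 4.99, 4.35, 4.61, 3.44 and 3.43 FPKM and 1.67, 2.74, 4.08, 2.53 and 2.57 FPKM, with tunicamycin library 3 inside the vehicle range. The differences were -0.35 ± 0.055 for Scd2 (SE, limma adjusted p = 0.00029) and -0.49 ± 0.12 for Scd1 (SE, limma adjusted p = 0.011). The 2 genes are close paralogs, so how reads were shared between them by the authors' counting is uncertain. Acaca, acetyl-CoA carboxylase, gave -0.16 ± 0.060 (SE, limma adjusted p = 0.10), with vehicle library 4 above the other vehicle libraries at 22.7 FPKM. Lpin1, a lipin known as an SREBP target, gave 0.01 ± 0.058 (SE).

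The 5 LXR genes did not pass, with differences of -0.062 to 0.065 and the widest interval reaching from -0.27 to 0.18. Nr1h2, which encodes LXR-beta, stood at 33.9 to 40.6 FPKM with tunicamycin and 36.7 to 42.2 FPKM in vehicle set 2. Nr1h3, LXR-alpha, was low in every group and reached at most 2.59 FPKM. The exporters Abca1 and Abcg1 gave -0.06 ± 0.091 and -0.05 ± 0.055 (SE). Mylip, the LXR target that removes lipoprotein receptors, gave 0.06 ± 0.057 (SE). No fall like that of the synthesis genes was called among these 5 genes, and the interval of each includes zero. They do not stand for every gene that LXR turn on, and Pltp, which is not among these 5, fell as described next.

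Of 25 other genes of lipid metabolism, 3 fell with tunicamycin and 0 rose, with a median difference of -0.086. Aacs, which makes acetoacetyl-CoA for lipid synthesis, read 15.9, 14.9, 16.8, 16.9 and 15.3 FPKM in vehicle set 2 and 11.1, 12.9, 14.4, 11.5 and 12.7 FPKM with tunicamycin. Fads2, a fatty acid desaturase, read 44.6, 37.8, 43.6, 38.5 and 39.8 FPKM and 24.2, 33.9, 35.8, 37.1 and 35.96 FPKM. Pltp, which transfers phospholipid between lipoproteins, read 21.7, 23.5, 22.8, 17.98 and 21.02 FPKM and 3.29, 4.55, 5.27, 8.54 and 6.64 FPKM, the deepest fall among the lipid genes examined. The differences were -0.33 ± 0.060, -0.30 ± 0.084 and -1.80 ± 0.16 (SE, limma adjusted p = 0.0016, 0.030 and 6.0e-08). The Site-1 and Site-2 proteases that cleave SREBP and ATF6, Mbtps1 and Mbtps2, gave 0.07 and 0.02 and did not pass.

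Within the tunicamycin group the members varied by library. Library 1 was the lowest of the 5 for 22 of the 36 genes (36.3% of all genes) and library 3 the highest for 22 of 36 (29.4% of all genes). The median of the 19 cholesterol synthesis enzymes, relative to the mean of vehicle set 2, was -0.37, -0.20, -0.051, -0.11 and -0.18 in libraries 1 to 5. For the 6 fatty acid genes it was -0.37, -0.28, -0.077, -0.27 and -0.26, and for the 5 LXR genes 0.0012, 0.025, -0.062, 0.058 and -0.037. Library 1 also had the highest Hspa5 and library 3 the lowest, and with 5 libraries no correlation is given. Summed lens markers were 10734, 4740, 2.01, 106 and 4411 FPKM in libraries 1 to 5. Their order from highest to lowest was library 1, 2, 5, 4 and 3, the same as that of the cholesterol enzyme medians from lowest to highest. For Hspa5 the order from highest to lowest was library 1, 4, 2, 5 and 3. In Ceapin-A7 libraries 1 to 5, lens markers summed to 7143, 61.3, 518, 57.3 and 3383 FPKM. The cholesterol enzyme medians there were -0.061, -0.10, -0.15, 0.0073 and -0.098, an order unlike that of the lens sums. The part of lens RNA or of Hspa5 in the spread between the tunicamycin libraries was not tested. Without libraries 1 and 3 together, a setting chosen after the data were seen, 14 of the 36 genes were called. The share of all genes called in that setting is not given here.

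**Figure D3:**
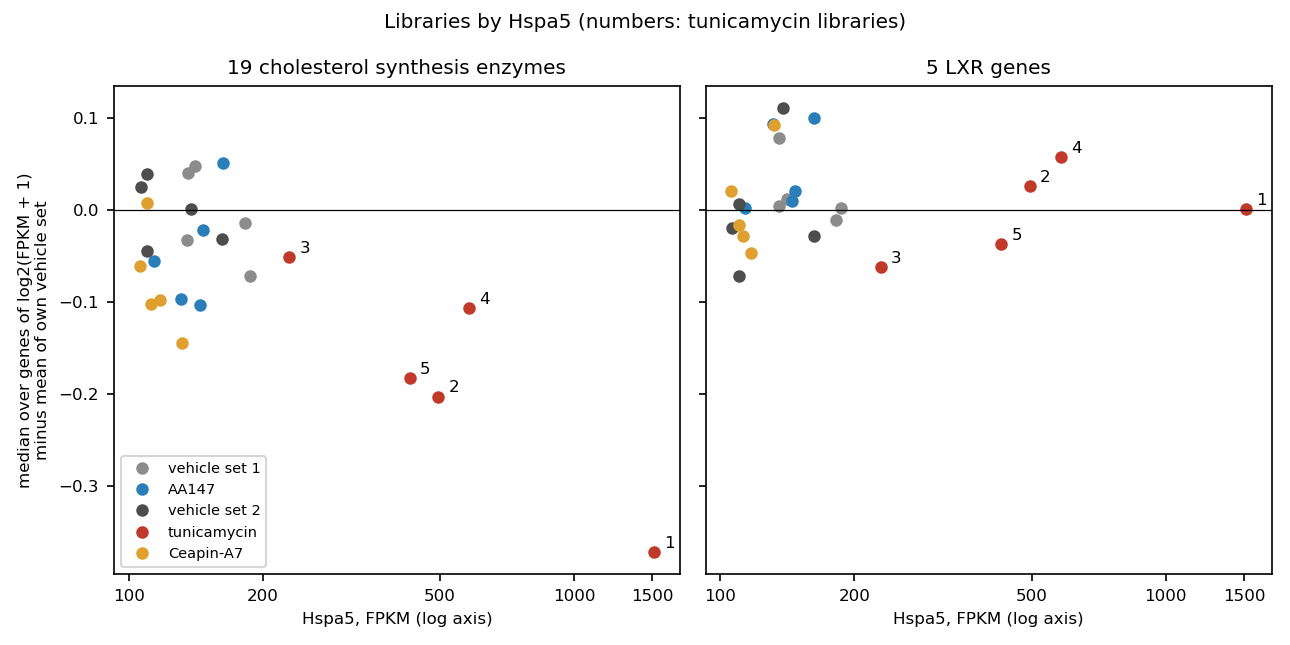
Each point is a library, placed by Hspa5 in FPKM on a log axis and by the median, over the 19 cholesterol synthesis enzymes (left) or the 5 LXR genes (right), of log2(FPKM + 1) minus the mean of its own vehicle set. Tunicamycin library 1 is farthest right and lowest on the left panel at -0.37, library 3 is closest to the other groups at -0.051, and the right panel shows no such spread.

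**Figure D4:**
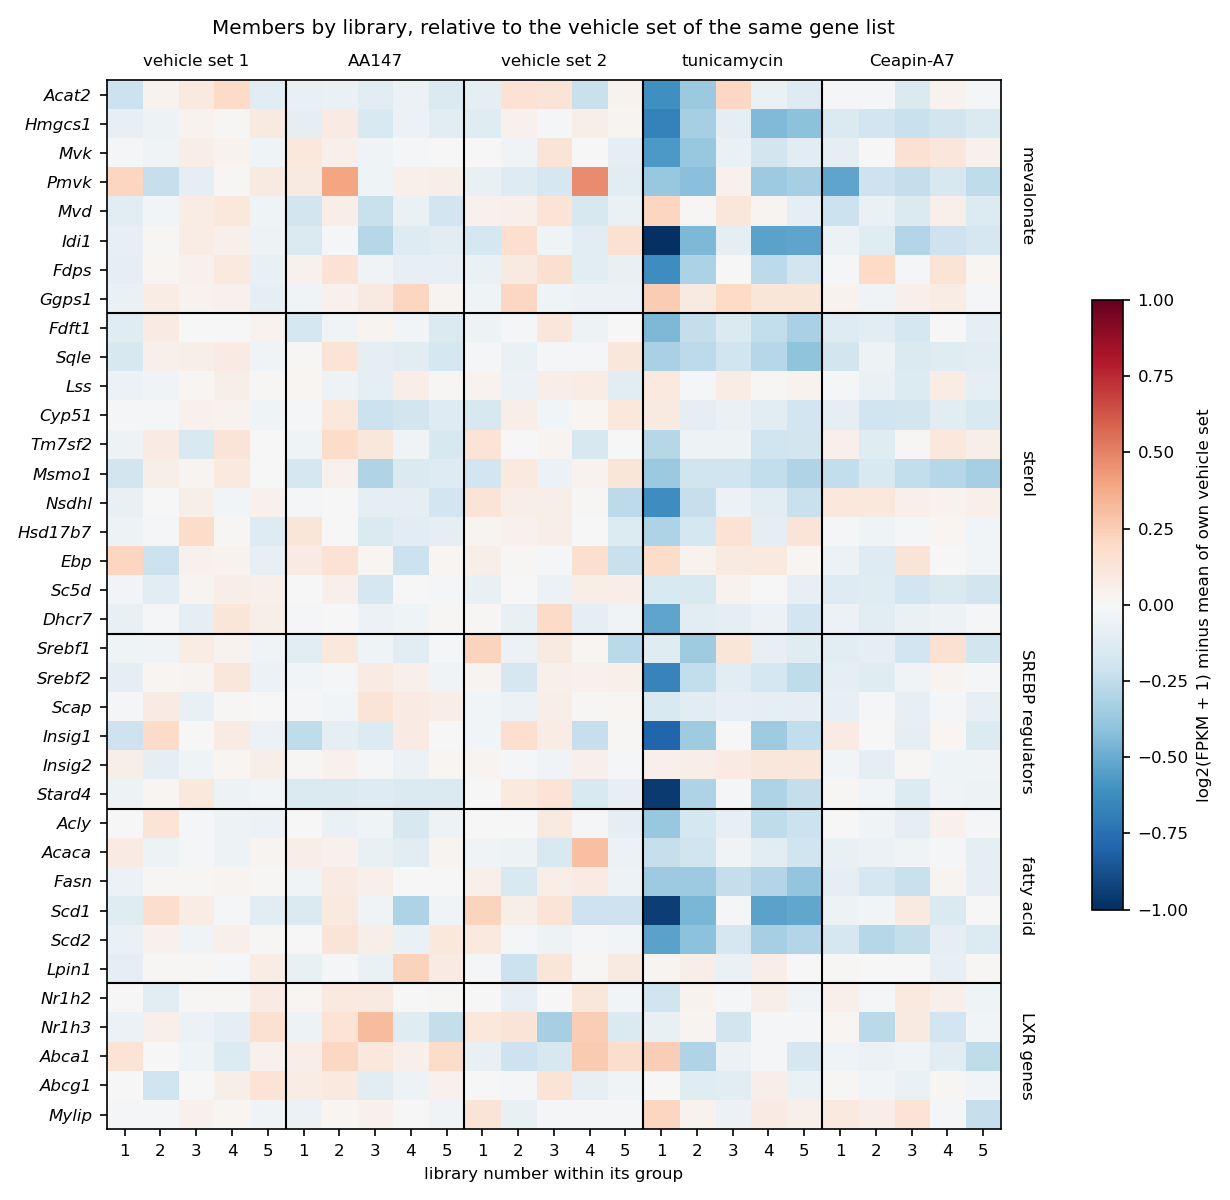
Log2(FPKM + 1) of the 36 genes (rows, by role) in the 25 libraries (columns, by group) minus the mean of the vehicle set of the same gene list, blue for lower and red for higher. Tunicamycin library 1 is the darkest blue column and library 3 the palest of that group, and Insig2 and Ggps1 are pale red across all 5.

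Cell markers also moved in the tunicamycin libraries. Pericyte markers summed to 8.6 to 11.2 FPKM with tunicamycin and 23.9 to 28.7 FPKM in vehicle set 2, and 4 of 5 lay below every vehicle library. Pigment epithelium markers summed to 9.88 to 39.2 and 97.0 to 209.7 FPKM, with 3 of 5 below every vehicle library. Endothelial markers summed to 33.7 to 58.7 and 58.3 to 74.4 FPKM, with 2 of 5 below and 1 above. Muller glia markers summed to 668 to 1520 and 682 to 1815 FPKM. The rod transcript Gnat1 read 3788, 4974, 4414, 4305 and 4746 FPKM with tunicamycin and 3841 to 5884 FPKM in vehicle set 2. Tunicamycin library 1, the lowest library for most of the 36 genes, was also the lowest of its group in Gnat1 and in the summed markers of 8 of 10 cell types, namely cones, bipolar cells, ganglion cells, Muller glia, microglia, astrocytes, endothelium and pigment epithelium. Its cone markers summed to 486 FPKM against 768 or more in the other 4 libraries, and its microglia markers to 26.4 FPKM against 39.4 or more. Amacrine and pericyte markers were lowest in library 2. No listed marker of these types was at 0 in all libraries of a group. In bulk tissue, fewer cells of a type and less RNA per cell cannot be told apart, and the part of these shifts in the lipid genes was not tested.

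Ceapin-A7 passed the test for no member. Against vehicle set 2, 0 of 36 genes were called by limma, as for all genes (0.0%, 0 of 13117), although 1615 genes had an unadjusted p under 0.05, among them 8 of the 36. The differences ran from -0.28 to 0.068, with a median of -0.048 against -0.00035 for all genes, and 29 of 36 were below zero (80.6%, against 50.2% of all genes). Members with all Ceapin-A7 libraries below all vehicle libraries were Hmgcs1, Sc5d and Scd2, 3 of 36 against 0.48% of all genes, and 0 had the reverse (0.968%). Hmgcs1 read 55.4, 53.5, 52.3, 53.8 and 55.4 FPKM with Ceapin-A7, between the vehicle libraries and most tunicamycin libraries. Its difference was -0.18 ± 0.068 (SE, limma adjusted p = 0.33). Scd2 read 110.2, 101, 105, 116 and 112 FPKM with a difference of -0.18 ± 0.055 (SE, limma adjusted p = 0.30). Sc5d read 21.9, 21.97, 20.9, 21.6 and 20.98 FPKM against 22.7, 24.1, 23.00, 25.2 and 25.2 FPKM, with -0.16 ± 0.046 (SE, limma adjusted p = 0.30).

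The lowest unadjusted p of a member in this comparison was that of Msmo1. It read 36.6, 39.1, 36.6, 35.6 and 34.4 FPKM with Ceapin-A7, a range that overlapped vehicle set 2 only through vehicle library 1. Its difference was -0.25 ± 0.063 (SE, unadjusted p = 0.00056, limma adjusted p = 0.30), beside -0.26 for tunicamycin against the same vehicle libraries. The other genes that fell with tunicamycin lay on either side of vehicle set 2 by their Ceapin-A7 means. Mvk read 14.2, 15.3, 17.1, 16.7 and 15.8 FPKM in Ceapin-A7 libraries 1 to 5. Fdps read 43.3, 50.2, 43.2, 48.1 and 44.3 FPKM. Nsdhl read 13.8, 13.8, 13.2, 13.1 and 13.2 FPKM. These 3 had means above vehicle set 2. Insig1 read 46.9, 44.1, 41.4, 44.9 and 40.2 FPKM. Srebf2 read 43.3, 42.2, 44.96, 46.97 and 45.8 FPKM. Stard4 read 7.74, 7.50, 6.88, 7.46 and 7.35 FPKM. These 3 regulators stayed inside their vehicle ranges in every library. Acly read 72.8, 71.2, 68.3, 75.3 and 72.3 FPKM. Scd1 read 3.94, 4.02, 4.45, 3.64 and 4.14 FPKM. Of these fatty acid genes only Acly library 3 lay below its vehicle range. Idi1 read 28.5, 27.2, 24.1, 25.6 and 26.3 FPKM. Fdft1 read 34.5, 35.00, 33.5, 37.7 and 35.3 FPKM. The means of both were below vehicle set 2, with overlapping ranges and differences of -0.17 and -0.10. Sqle read 24.6, 27.1, 25.3, 25.7 and 25.9 FPKM. Fasn read 24.04, 22.9, 21.98, 26.3 and 24.3 FPKM. Their means were also lower and their ranges also overlapped, with differences of -0.13 and -0.11. The 5 LXR genes ran from -0.10 to 0.028 and did not pass.

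Tunicamycin and Ceapin-A7 were also compared directly. No vehicle library entered the difference, but all 5 groups entered the estimate of spread. Lower with tunicamycin were 14 of the 36 genes (4.48% of all genes) and higher 1 (8.83% of all genes; 13.3% in either direction). The 14 were the genes lower against vehicle set 2 except Msmo1. This comparison shares its tunicamycin libraries with the one against vehicle. The differences between the compounds were greatest for Scd1 (-0.47 ± 0.12), Idi1 (-0.37 ± 0.11) and Fdps (-0.35 ± 0.081, SE). Msmo1, with means below vehicle set 2 for both compounds though called only for tunicamycin, gave -0.01 with a 95% interval of -0.14 to 0.12. The gene higher with tunicamycin was Insig2, at 21.3, 20.3, 21.9, 21.02 and 21.2 FPKM with Ceapin-A7 and above that range in all 5 tunicamycin libraries (0.12 ± 0.033, SE, limma adjusted p = 0.018). With no overlap between compounds, Sqle, Nsdhl, Scap and Fasn were lower (4 of 36, against 2.74% of all genes) and Ggps1 and Insig2 higher (2 of 36, against 6.73%). With only the 2 groups in the model, Fasn alone was called (4.67% of all genes), and with the 3 groups of the gene list 6 genes were (5.43% of the genes tested there). Without tunicamycin library 1 the count was 7, without tunicamycin library 4 it was 9, without Ceapin-A7 library 3 it was 9, and without Ceapin-A7 library 2, 4 or 5 it was 8. All genes called ran from 925 without tunicamycin library 1 to 2874 without tunicamycin library 3, against 1746 with all libraries.

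AA147 passed the test for no member. Against vehicle set 1, 0 of 36 genes were called (0.0%, 0 of 13117 genes). The limma adjusted p was 1.00 for each member, and 246 genes had an unadjusted p under 0.05, of the 36 only Msmo1 (-0.14 ± 0.063, SE). The median difference was -0.0091 (0.0092 for all genes) and the range -0.14 to 0.12. Hmgcs1 read 58.2, 59.5, 63.1, 62.05 and 65.8 FPKM in vehicle set 1 and 58.03, 65.4, 55.6, 59.3 and 57.3 FPKM with AA147. Idi1 read 23.9, 25.6, 26.8, 26.2 and 24.4 FPKM in vehicle set 1 and 22.9, 25.1, 20.6, 23.1 and 23.4 FPKM with AA147. Insig1 read 37.2, 49.2, 42.96, 45.7 and 41.4 FPKM in vehicle set 1 and 35.9, 40.4, 39.1, 45.6 and 43.03 FPKM with AA147. The 2 groups overlapped in all 3 genes. Fasn read 36.1, 37.8, 37.8, 38.4 and 37.9 FPKM in vehicle set 1 and 36.8, 39.8, 39.03, 37.7 and 37.6 FPKM with AA147. Scd2 read 110.2, 119, 113, 119.8 and 116 FPKM in vehicle set 1 and 115, 126, 121, 110.3 and 124 FPKM with AA147. Both had slightly higher means with AA147, with differences of 0.02 ± 0.047 and 0.04 ± 0.055 (SE).

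Srebf2 read 45.1, 49.2, 49.5, 52.4 and 46.5 FPKM in vehicle set 1 and 47.5, 48.2, 51.3, 50.4 and 47.3 FPKM with AA147. Sqle read 22.4, 26.1, 26.3, 26.6 and 24.5 FPKM in vehicle set 1 and 25.3, 27.7, 23.5, 23.3 and 22.1 FPKM with AA147. Both overlapped vehicle set 1. Msmo1 read 28.1, 33.3, 32.6, 34.2 and 31.9 FPKM in vehicle set 1 and 28.3, 33.03, 25.7, 28.8 and 29.1 FPKM with AA147. Fdft1 read 36.4, 42.04, 39.9, 39.7 and 40.8 FPKM in vehicle set 1 and 35.1, 38.7, 40.5, 38.99 and 35.8 FPKM with AA147. Both had lower means with AA147 and overlapping ranges. Mvk read 15.5, 15.4, 16.5, 16.2 and 15.2 FPKM in vehicle set 1 and 17.00, 16.4, 15.3, 15.5 and 15.7 FPKM with AA147. Fdps read 45.9, 49.4, 50.4, 52.4 and 46.3 FPKM in vehicle set 1 and 50.2, 54.2, 47.6, 45.9 and 45.96 FPKM with AA147. Nsdhl read 12.8, 13.4, 14.1, 13.2 and 13.9 FPKM in vehicle set 1 and 13.3, 13.5, 12.5, 12.7 and 11.7 FPKM with AA147. The ranges overlapped in each. Acly read 84.9, 93.8, 84.1, 82.2 and 81.7 FPKM in vehicle set 1 and 84.8, 81.4, 82.8, 76.01 and 82.1 FPKM with AA147. Scd1 read 3.64, 4.70, 4.31, 3.97 and 3.66 FPKM in vehicle set 1 and 3.56, 4.38, 3.93, 3.08 and 3.92 FPKM with AA147. These fatty acid genes also overlapped. The exception was Stard4, at 5.61, 5.93, 6.37, 5.62 and 5.72 FPKM in vehicle set 1 and 5.2, 5.2, 5.27, 5.19 and 5.18 FPKM with AA147. All its AA147 libraries lay below vehicle, 1 of 36 genes against 0.206% of all genes, and the model gave -0.14 ± 0.10 (SE, unadjusted p = 0.18). No member lay wholly above vehicle (0.45% of all genes).

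Set against each other through their own vehicle sets, tunicamycin and AA147 differed for 2 of the 36 genes, Fasn and Scd2, both lower with tunicamycin (0.396% of all genes; 1.04% in either direction and 0.64% higher). Fasn differed by -0.35 ± 0.066 (SE, limma adjusted p = 0.0050) and Scd2 by -0.39 ± 0.077 (SE, limma adjusted p = 0.0086). Neither was called with Ddx3y as a covariate. Without tunicamycin library 3 there were 8 (637 of 13117 genes, against 136 with that library). For the other genes the difference of differences did not pass, as for Idi1 with -0.40 (95% interval -0.73 to -0.08) and Hmgcs1 with -0.33 (-0.53 to -0.13). AA147 and Ceapin-A7 compared in the same way differed for 0 of 36 genes (0.0%, 0 of 13117), and 882 genes, 2 of the 36 among them, had an unadjusted p under 0.05.

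The 2 vehicle sets differed across the whole table. Between them 46.8% of all genes were called, 26.3% higher in set 2 and 20.5% lower. Of the 36 genes, 9 were higher in set 2 and 5 lower, no more than these shares. Abca1, the LXR target that exports cholesterol, read 2.52, 2.21, 2.10, 1.92 and 2.29 FPKM in set 1 and 4.22, 3.75, 3.90, 5.59 and 5.19 FPKM in set 2, with no overlap (0.78 ± 0.091, SE, limma adjusted p = 2.0e-07). Fasn was lower in set 2 by 0.52 ± 0.047 (SE, limma adjusted p = 3.1e-09), more than its fall with tunicamycin. Cyp51, Msmo1, Sc5d, Sqle, Lss, Ggps1, Acaca and Stard4 were higher in set 2, with differences of 0.16 (Sqle) to 0.44 (Msmo1). Acly, Mvd, Mylip and Scap were lower, with -0.20 (Mylip) to -0.23 (Scap). The tables of the sets list different genes, and no label says what else differed between them. Summed Y-linked markers read 56.6 FPKM or more throughout set 1 and at most 0.06 FPKM in libraries 1 to 4 of set 2. With Ddx3y as a covariate, 11 of the 36 genes were called between the sets (40.9% of all genes). The part of sex in the difference was not otherwise tested.

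The choice of vehicle therefore changed what tunicamycin showed for some genes. The same 5 tunicamycin libraries were lower for 17 and higher for 9 of the 36 genes when set against vehicle set 1, where 23.4% of all genes were called lower and 32.9% higher (56.3% in either direction). Lower against both sets were 13 genes, Hmgcs1, Mvk, Idi1, Fdps, Fdft1, Sqle, Nsdhl, Srebf2, Insig1, Acly, Fasn, Scd1 and Scd2. Msmo1 was lower against set 2 (-0.26) and higher against set 1 (0.17), and Stard4 was lower against set 2 (-0.36) and not called against set 1 (-0.02). Abca1, at 3.44 to 5.49 FPKM with tunicamycin, was -0.06 against set 2 and 0.71 against set 1. Both comparisons use the same tunicamycin libraries, so the 13 genes are not 2 independent results. The share of all genes lower against both sets was not counted. It cannot exceed the 2.81% called lower against set 2.

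**Figure D5:**
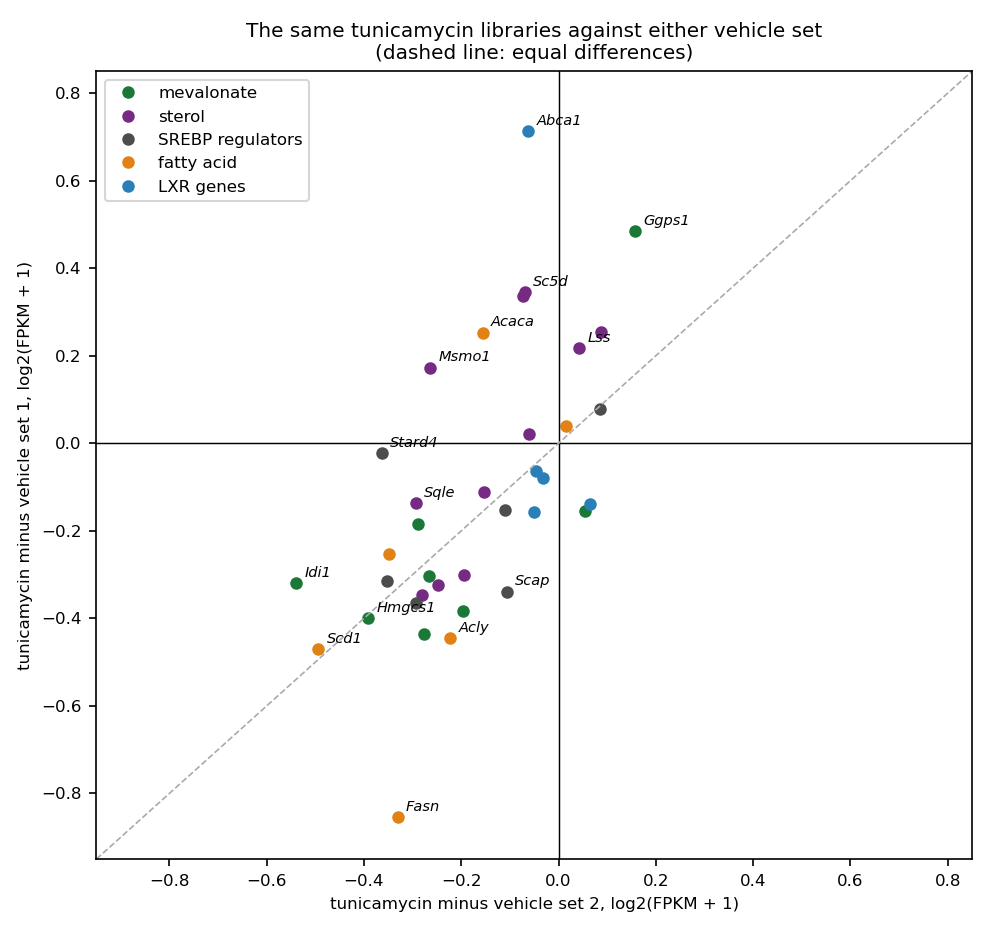
Each point is 1 of the 36 genes, placed by the difference of the same tunicamycin libraries from vehicle set 2 (horizontal) and vehicle set 1 (vertical) in log2(FPKM + 1), coloured by role. Points off the dashed line differ between vehicle sets: Abca1 (-0.06 and 0.71), Msmo1 (-0.26 and 0.17) and Fasn (-0.33 and -0.85).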

How the data were processed

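Expression was measured in 25 libraries, 5 per group. The authors deposited FPKM in 1 table per group. Per the labels' protocols, stranded mRNA libraries were sequenced on DNBSEQ, and the tools listed in the submitters' processing notes are DESeq2 1.4.5, HISAT2 2.0.4 and RSEM 1.2.18, with build GRCm39 and no roles or order. The 18440 gene symbols listed in all 5 tables were used. 236 genes were listed only with vehicle set 1 and AA147 and 662 only with the other tables. Values were tested as log2(FPKM + 1) with limma 3.58.1 in R 4.3.3 in 1 model of 5 groups (20 residual degrees of freedom, trended variance prior, two-sided), for the 13117 genes that reached 1 FPKM in 5 or more libraries. The procedure was tested on simulated data with independent noise and the same spread of a gene in every group. It therefore did not test how the calls behave where groups differ in spread. FPKM holds no counts, so depth was estimated from low values of 761 single-transcript genes, with 250 bases assumed not to start a fragment, and gave a median of 23.4 M fragments. The highest share of tested genes with equal FPKM in any 2 libraries was 0.8%. The members and lists were chosen with earlier results of these data known. Every member is reported. Those called in a comparison with their own vehicle set are given in every library. Alternatives changed the pseudocount, filter, scaling, vehicle set, groups fitted, library weights, covariate and libraries left out. Promoter windows came from RefSeq (GRCm38.p6), not the authors' build. Figures were drawn with matplotlib 3.10.9, pandas 2.3.3 and numpy 2.4.6 in Python 3.11.15. A summed level of rod markers is not reported here.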

Additional observations from a re-analysis of the deposited data

Results flagged for a closer look

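Of 180 gene and group combinations (36 genes in 5 groups of 5), 16 had a library whose gap to the nearest other library, divided by the range of the group, was above 0.71. Chance flags about 1 in 20 such groups. Pmvk, the phosphomevalonate kinase, was flagged in 4 groups, with AA147 library 2 at 55.6 FPKM, library 4 of vehicle set 2 at 63.5 FPKM, tunicamycin library 3 at 46.8 FPKM and Ceapin-A7 library 1 at 31.3 FPKM. High in vehicle set 2 were Ggps1 in library 2 (22.3 FPKM), Sqle in library 5 (30.4 FPKM), Acaca in library 4 (22.7 FPKM), and Scd2 and Mylip in library 1 (133 and 12.4 FPKM). Srebf2 was low in library 2 of that set (40.8 FPKM). In Ceapin-A7 library 4, Srebf1 was high (32.7 FPKM) and Lpin1 low (12.2 FPKM). In vehicle set 1, Acly was high in library 2 (93.8 FPKM) and Fasn low in library 1 (36.1 FPKM). Scap was low in tunicamycin library 1 (35.8 FPKM). Stard4 in AA147 library 3 stood at 5.27 FPKM against 5.2 FPKM for the next library, a gap that was large only relative to the narrow range of that group.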

How the results depend on the processing

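No gene called in a comparison changed direction under the alternatives run for it. Msmo1, lower with tunicamycin against vehicle set 2, was higher (0.17) in the separate comparison with vehicle set 1. Some of the 36 genes that were not called did so against the mean of both vehicle sets. For tunicamycin these were Abca1 (-0.06 to 0.33), Cyp51 (-0.07 to 0.13) and Sc5d (-0.07 to 0.14), for Ceapin-A7 Abca1 (-0.10 to 0.29) and Acaca (-0.05 to 0.15), and for AA147 Abca1 (0.12 to -0.27), all called there. The median of the 36 genes between the vehicle sets, 0.0090, ran from -0.023 to 0.026 over the alternatives. The count of the 36 genes called for tunicamycin against vehicle set 2 was 15. It was 3 with only the compared groups fitted, 8 with the groups of one gene list, 7 with Ddx3y as a covariate and 23 against the mean of both vehicle sets (7 higher and 16 lower, where 43.8% of all genes were called). Leaving out 1 library gave 10 to 20, while the count of all genes called ran from 611 to 1985 (1141 with all libraries). The count for tunicamycin against Ceapin-A7 was 15. It was 1 with only the compared groups, 6 with the groups of one gene list, 9 with the covariate (9.63% of all genes) and 7 to 16 with 1 library left out. With 1 library left out, 925 to 2874 of all genes were called (1746 with all libraries). For tunicamycin against AA147, each against its own vehicle set, the count of 2 became 0 with the covariate, 4 without tunicamycin libraries 1 and 3 together (added after the data were seen) and 2 to 8 with 1 library left out. Of all genes, 89 to 637 were called with 1 library left out (136 with all libraries). Against the mean of both vehicle sets, Ceapin-A7 had 10 genes called (33.4% of all genes) and AA147 8 (22.5% of all genes), where their own vehicle sets gave 0. The cause of these shifts was not tested. The median difference of the 36 genes for tunicamycin against vehicle set 2 was -0.20 to -0.13 with 1 library left out and -0.21 to -0.16 under the other alternatives. With the replicate number as a block, the counts were 14 for tunicamycin against vehicle set 2 and 14 against Ceapin-A7, and unchanged elsewhere. Correlations of same-numbered libraries ran from -0.43 to 0.47, and whether the numbers pair the libraries cannot be told from them. Rescaling moved the split of all genes called for tunicamycin against vehicle set 2 from 773 higher and 368 lower to 562 and 553 (median ratio) or 567 and 572 (quantile), while the count of the 36 genes called lower became 17 and 18. FPKM gives no counts, so depth limits precision by an amount not known here.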
